A study of Homo sapiens with 4 samples.

Results

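The genes described here are 5 metallothioneins and 2 regulators of cellular zinc, measured in MCFDCIS, a basal-subtype line of breast cancer cells that had received Slug siRNA or control siRNA. They are MT1E, MT1F, MT1G, MT1X, MT2A, MTF1 and SLC30A1, which make 7 of the 20046 genes with a symbol on the array. The family was chosen by the measured difference of MT1E between the groups, which was among the largest of all genes, and the other 6 were added as its paralogs and as genes of zinc control. For that reason the group differences of all 7 are given as a description, and no test of them is read as evidence. All cells were grown for 48 hours in their recommended medium, per the labels. RNA was taken 72 hours after the siRNAs were given, from 2 biological replicates of Slug siRNA and 2 of control siRNA, and was read on 4 Illumina bead arrays. The labels name no added metal. They leave unsaid whether replicates were separate cultures of different days, so a p-value here covers only the spread among the 4 arrays.

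Metallothioneins are small, cysteine-rich proteins that bind zinc and copper and take up toxic metals such as cadmium. Their genes form a cluster on the long arm of human chromosome 16. MTF1 is the zinc-sensing transcription factor that binds metal response elements in their promoters when zinc is plentiful. SLC30A1, also called ZnT1, is a zinc exporter of the plasma membrane and another target of MTF1. Slug, the product of SNAI2, is a zinc finger repressor that binds E-box sequences.

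The metal response element has the core letters TGCGCNC or TGCACNC, searched on both strands in the 250 bases before the annotated start of each gene. The RefSeq promoter table for GRCh38.p14 matched 4 of the 7 genes, and MT1E, MT1F and MT1G had no entry. The sequences of MT2A and MT1X are shown because these paralogs of MT1E carry many copies of the element, and that of SLC30A1 because it is the exporter under the same factor. MT2A lies at chr16:56608334-56608583 and MT1X at chr16:56682220-56682469, both on the plus strand. The SLC30A1 stretch lies at chr1:211579162-211579411 on the minus strand. Capitals mark the element.
MT2A: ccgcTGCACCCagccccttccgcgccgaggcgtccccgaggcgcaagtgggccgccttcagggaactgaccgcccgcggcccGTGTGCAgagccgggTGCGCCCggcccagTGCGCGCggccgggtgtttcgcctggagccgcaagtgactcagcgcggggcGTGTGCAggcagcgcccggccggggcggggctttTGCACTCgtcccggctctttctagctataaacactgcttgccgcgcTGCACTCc
MT1X: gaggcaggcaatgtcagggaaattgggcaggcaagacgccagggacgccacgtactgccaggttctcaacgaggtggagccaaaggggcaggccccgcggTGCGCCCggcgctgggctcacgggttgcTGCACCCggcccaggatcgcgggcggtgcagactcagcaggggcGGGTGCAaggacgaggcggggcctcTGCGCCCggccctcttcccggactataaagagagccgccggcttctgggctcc
SLC30A1: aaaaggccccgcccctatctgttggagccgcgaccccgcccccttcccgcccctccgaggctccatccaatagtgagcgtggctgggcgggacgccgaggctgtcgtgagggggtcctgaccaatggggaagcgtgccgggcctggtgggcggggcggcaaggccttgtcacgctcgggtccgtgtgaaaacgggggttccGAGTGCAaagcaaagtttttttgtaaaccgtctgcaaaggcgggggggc
The stretch of MT2A held 7 matches, that of MT1X held 4 and that of SLC30A1 held 1, and that of MTF1 itself held 0. No match overlapped another. Among 35116 promoter stretches of the same length, 24.8% held at least 1 match and 0.370% held 4 or more. The E-box CAGGTG, searched on both strands, was in none of the 4 stretches, against 17.5% of all. A match is a string of letters, and no binding was measured here.

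SNAI2, the target of the siRNA, had log2 intensities of 8.57 and 8.51 with Slug siRNA, against 8.95 and 9.01 with control siRNA, from its brighter probe. Both Slug siRNA arrays read lower, and the log2 difference was -0.44 (SE 0.16, limma adjusted p = 0.316), which did not pass the threshold. Between 39.8% and 40.8% of the 47323 probes were detected on each array. Of a fixed list of 7 epithelial markers, 6 had a symbol on the array, and these 6 passed the filter on dim probes. Their summed levels were 20791 and 21867 with Slug siRNA and 15294 and 15576 with control siRNA, on the linear scale of the normalized values. The sums came mostly from EPCAM, KRT8 and KRT5, with log2 differences of 0.38, 0.99 and 0.14. The difference was positive for 5 of the 6 and negative for KRT14 (-0.30). KRT14 was dim, at log2 5.41 and 5.86 with Slug siRNA, against 5.66 and 6.20 with control siRNA. Of the markers of other cell types, 2 of 4 immune genes (LYZ and CD14), 1 of 3 endothelial genes (PECAM1) and 1 of 4 fibroblast genes (COL1A1) passed the filter on dim probes. PTPRC, CD3E, CDH5, VWF, COL1A2, PDGFRB and LUM did not. The summed immune level was 1508 and 928 with Slug siRNA, against 918 and 820 with control siRNA. It came mostly from CD14, at log2 10.51 and 9.78 with Slug siRNA, against 9.79 and 9.58 with control siRNA. LYZ was dim, at log2 5.53 and 5.64 with Slug siRNA, against 5.10 and 5.84 with control siRNA. PECAM1 alone made up the endothelial level, at 349.9 and 227 with Slug siRNA, against 563 and 415 with control siRNA. COL1A1 alone made up the fibroblast level, at 51.8 and 22.9 with Slug siRNA, against 39.7 and 26.3 with control siRNA. COL1A1 was dim too, and its lowest readings were near background. The part of these markers in the results on zinc genes was not tested. The labels name only the MCFDCIS line, so these markers are not read as levels of immune, endothelial or fibroblast cells. Within cultures of the line, fewer cells of a kind and less RNA per cell cannot be told apart.

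The 7 genes were read by 9 probes. Of these, 8 had a detection p listed at 0 on every array, so each of the 7 genes passed the filter in both groups and none passed through 1 group only. The remaining probe was the second one of MT1E. A probe's level depends on its own sequence, and the levels of different genes are therefore not set against each other.

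MT1E had a larger difference between the groups than any of the 4 paralogs measured. With Slug siRNA it read at 0.312 times its level with control siRNA, while MT1F and MT1X lay within 0.1 of no difference on the log2 scale and MT1G had a difference of -0.46. MT1X ranged from -0.25 to 0.34 with 1 array left out. MT2A also lay near no difference, but its probe was so close to the top of the signal range that its normalized values had little room to differ. The deposited signal of the brighter MT1E probe, before any normalization, was 525 and 513 intensity units with Slug siRNA, against 1457 and 1327 units with control siRNA. Both Slug siRNA arrays read far below both control arrays, and the replicates of a group lay close together. The standard error of the mean over the beads of an array was 28.8 and 29.9 units with Slug siRNA and 102 and 69.5 units with control siRNA. These errors are small beside the gap, although the second control array carried only 8 beads for this probe, against 13 and 26 beads on the Slug siRNA arrays and 26 on the first control array. Bead error describes the reading of 1 array and not the spread between cultures.

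After background correction and quantile normalization the brighter MT1E probe had log2 intensities of 8.73 and 8.64 with Slug siRNA, against 10.44 and 10.29 with control siRNA. The means were 8.68 ± 0.06 with Slug siRNA and 10.37 ± 0.10 with control siRNA (SD, n = 2 each). The log2 difference was -1.68 (SE 0.16). Leaving out any 1 array kept it between -1.75 and -1.61, and it was -1.48 without background correction. In the authors' deposited table of normalized intensities the same probe read 450.3 and 424 with Slug siRNA, against 1491 and 1346 with control siRNA.

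The second MT1E probe did not show this difference. It read 113 and 122 units with Slug siRNA, against 106 and 116 units with control siRNA, with detection p-values of 0.351 and 0.158 with Slug siRNA and of 0.660 and 0.306 with control siRNA. It was not above background on any array, so it gives no fold for MT1E. Both probes are annotated to the same gene, and the description of MT1E rests on 1 probe. The probe sequences are not used here. Metallothionein transcripts are close copies of each other, and whether the brighter probe also catches a paralog was not tested.

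**Figure D1:**
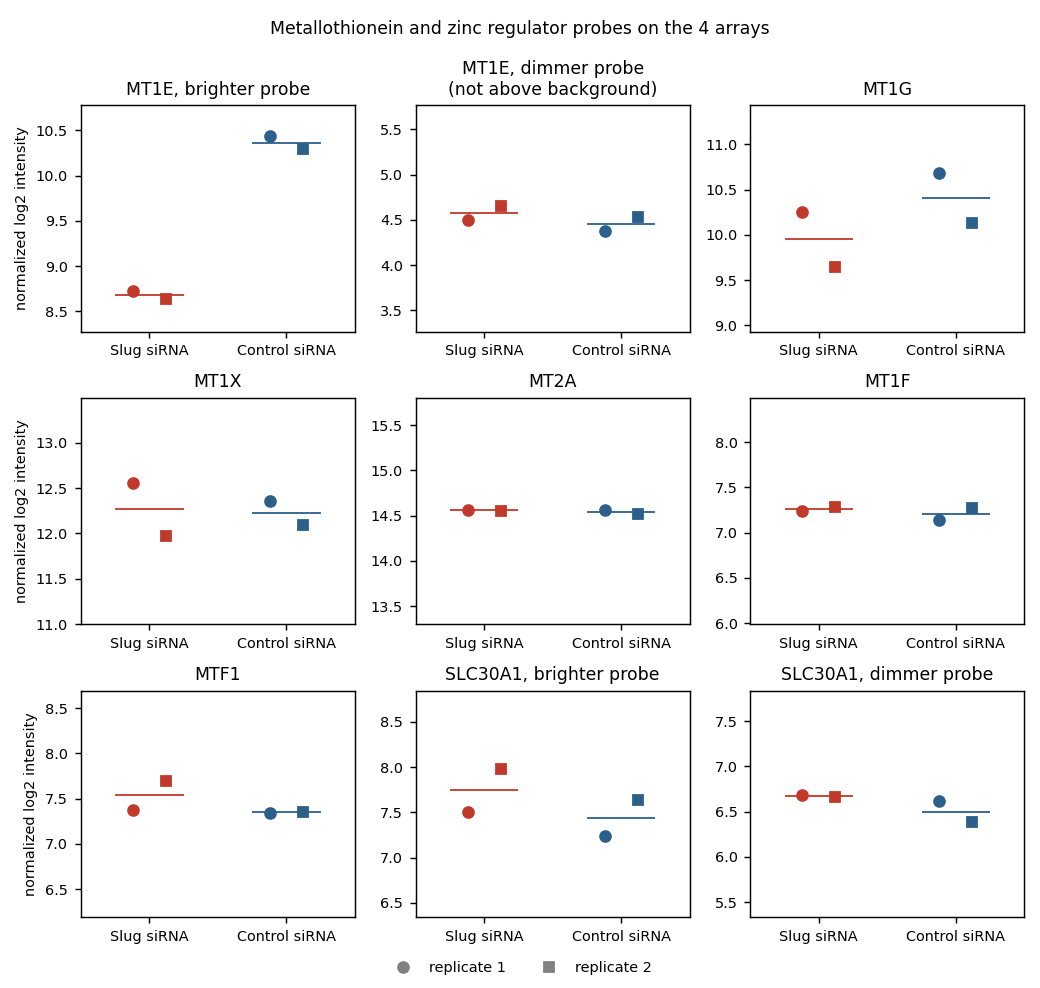
Normalized log2 intensity of each probe of the 7 genes on the 4 arrays, with Slug siRNA left and control siRNA right (circles, replicate 1, squares, replicate 2, lines, group means), each panel spanning the same log2 range. MT1E's brighter probe reads 8.73 and 8.64 with Slug siRNA, below 10.44 and 10.29 with control siRNA, while in the MT1G and MT1X panels the replicates of a group lie farther apart than the group means.

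MT1G, a metallothionein of the same cluster, was the paralog with the next largest difference. Its deposited signals were 1306 and 935 units with Slug siRNA, against 1698 and 1198 units with control siRNA. The groups overlapped, since the first Slug siRNA array read above the second control array. The normalized means were 9.95 ± 0.42 with Slug siRNA and 10.41 ± 0.39 with control siRNA (SD, n = 2 each). The log2 difference of -0.46 (SE 0.27) was about as large as the spread within a group. It was -0.16 without Slug siRNA replicate 2 and -0.18 without control siRNA replicate 1. It was -0.76 without Slug siRNA replicate 1 and -0.74 without control siRNA replicate 2. Slug siRNA read lower within each replicate number, at log2 10.25 against 10.69 in replicate 1 and 9.65 against 10.13 in replicate 2. Leaving out 1 array unbalances these numbers, which no label ties to a shared day or batch.

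MT1X, a paralog with metal response elements shown above, had signals of 6062 and 4288 units with Slug siRNA, against 5289 and 4341 units with control siRNA. The Slug siRNA arrays held both the highest and the lowest of the 4 values, so the groups overlapped fully. The log2 means were 12.27 ± 0.41 with Slug siRNA and 12.22 ± 0.19 with control siRNA (SD, n = 2 each), a difference of 0.04 (SE 0.23). The sign depended on single arrays, with a difference of -0.25 when Slug siRNA replicate 1 was left out, -0.09 when control siRNA replicate 2 was, 0.17 when control siRNA replicate 1 was and 0.34 when Slug siRNA replicate 2 was.

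MT2A, the other metallothionein gene whose promoter stretch is shown above, gave one of the brightest probes of the array. It ranked 4 and 5 of 47323 probes with Slug siRNA and 4 and 8 with control siRNA. Its deposited signals were 24288 and 23873 units with Slug siRNA, against 25906.5 and 22592.5 units with control siRNA, and the highest signals on these arrays were 25332 and 26852 units with Slug siRNA and 27963 and 24576 units with control siRNA. The Slug siRNA values lay between the control values. Quantile normalization gives equal values to equal ranks, which leaves little room at this end of the scale, and the normalized means were 14.56 ± 0.01 with Slug siRNA and 14.54 ± 0.04 with control siRNA (SD, n = 2 each). The difference was 0.02 (SE 0.16), and -0.03 with median scaling. How close the probe was to saturation is not given by the files.

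MT1F, another paralog of the cluster, was dimmer, with signals of 252 and 259 units with Slug siRNA, against 233 and 246 units with control siRNA. After normalization the groups overlapped, at log2 values of 7.23 and 7.29 with Slug siRNA and 7.14 and 7.28 with control siRNA. The difference was 0.05 (SE 0.16), and it was -0.02 without control siRNA replicate 1. Fold changes of dim probes are understated, because an offset of 16 units stays in the signal.

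The remaining metallothionein genes of the array, MT1B, MT1H, MT1IP, MT1L, MT1M, MT3 and MT4, were read by 8 probes, none of which passed the filter. Their signals ranged over 101 to 121 units with Slug siRNA and 102 to 119.8 units with control siRNA, at the level of the negative controls. The lowest of their detection p-values was 0.125. No direction can be given for them.

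MTF1, the zinc-sensing factor, had signals of 267 and 309.9 units with Slug siRNA, against 254.2 and 254.4 units with control siRNA. Both Slug siRNA arrays read higher, the first of them by little. The log2 values were 7.38 and 7.69 with Slug siRNA, against 7.34 and 7.36 with control siRNA, a difference of 0.19 (SE 0.18). Without Slug siRNA replicate 1 the difference was 0.34, and without Slug siRNA replicate 2 it was 0.03. The values concern the transcript, and MTF1 is controlled largely through zinc binding and entry into the nucleus, which the arrays do not measure.

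SLC30A1, the zinc exporter, was read by 2 probes. The brighter gave 283 and 358 units with Slug siRNA, against 243 and 289 units with control siRNA, and the groups overlapped. Its log2 difference was 0.30 (SE 0.23), from means of 7.74 ± 0.33 with Slug siRNA and 7.44 ± 0.28 with control siRNA (SD, n = 2 each). It dropped to 0.07 when Slug siRNA replicate 2 was left out and to 0.10 when control siRNA replicate 1 was. Leaving out Slug siRNA replicate 1 gave 0.54, and leaving out control siRNA replicate 2 gave 0.50. Slug siRNA read higher within each replicate number, at log2 7.51 against 7.24 in replicate 1 and 7.98 against 7.64 in replicate 2. The dimmer probe gave 203 and 202 units with Slug siRNA, against 191 and 178 units with control siRNA. Its normalized groups did not overlap, at 6.68 and 6.66 with Slug siRNA and 6.61 and 6.39 with control siRNA, a difference of 0.17 (SE 0.17).

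**Figure D2:**
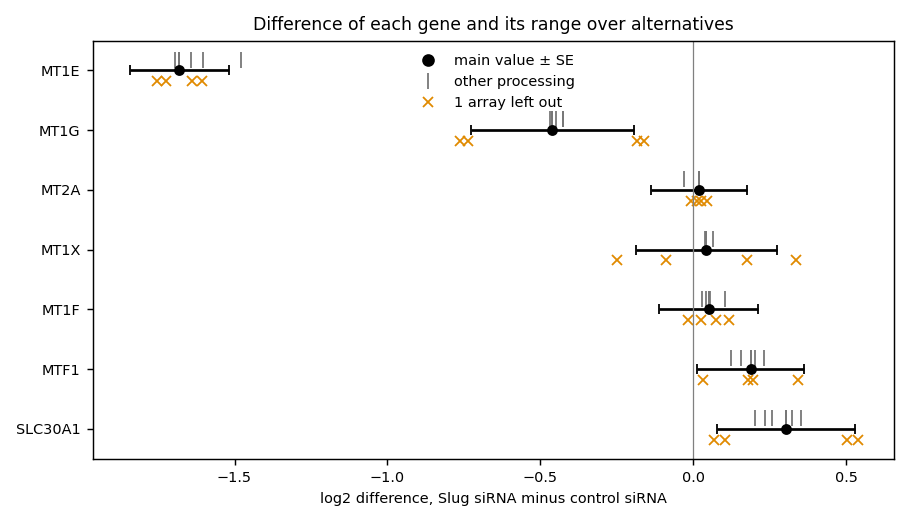
Log2 difference of each gene, Slug siRNA minus control siRNA (black points with SE), with the values under other processing (grey bars) and with 1 array left out (orange crosses). MT1E stays between -1.75 and -1.48 under all of them, MT1G between -0.76 and -0.16, and MT1X, MT2A and MT1F lie on both sides of 0.

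As counts over the representative probe of each gene, 1 of the 7 genes, MT1E, had a log2 difference of -1 or lower, as did 0.777% of the 11200 genes tested. Limma called 9 genes lower at an adjusted p under 0.05, which is 0.0804% of those tested, and MT1E was 1 of them. In both directions it called 13 genes, and this count depended on the processing. It was 34 with median scaling, 158 without background correction, 217 with an offset of 50 and 361 with the replicate number as a block. Limma called 0 genes, and so not MT1E either, with the authors' normalized values and with no filter on dim probes. The log2 difference of MT1E was -1.70 and -1.68 there. This contrast chose MT1E, so nothing is read from its call or from these shares. The groups did not overlap and Slug siRNA was lower for 1 of 7 genes (MT1E), against 21.5% of all genes, and Slug siRNA was higher for 1 of 7 (MTF1), against 23.6% of all genes. The other 5 overlapped.

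Genes with a profile like that of MT1E were ranked by the root mean square distance of their log2 values over the 4 arrays, each gene centred on its own mean. The nearest of 11199 genes were SLC49A4 (0.05), GSDME (0.07), ANAPC1 (0.07), BCL7B (0.09) and GLCE (0.13), distances being in log2 units. SLC49A4 read 7.47 and 7.39 with Slug siRNA, against 9.30 and 9.11 with control siRNA. None of these is a metallothionein. MT1G, the nearest of the other members, ranked 885 at a distance of 0.65. MT2A, MT1F, MT1X, MTF1 and SLC30A1 ranked from 5263 to 10015. The likeness rests on 4 arrays and mostly on the difference between groups that chose MT1E, and is a description only.

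The contrast between replicate numbers was not the one that chose the genes. A limma call between groups favours a small spread within groups, however. The small replicate difference of MT1E is therefore not independent of its call. The replicate contrast was fitted with group as a further term, and is replicate 2 minus replicate 1. MT1G had a difference of -0.58 (SE 0.13, limma adjusted p = 0.161) and MT1X one of -0.43 (SE 0.15, limma adjusted p = 0.233). Both were lower in replicate 2 of either group than in replicate 1 of either group. The brighter probe of SLC30A1 ran the other way, at 0.43 (SE 0.13, limma adjusted p = 0.201), but its dimmer probe gave -0.12 (limma adjusted p = 0.687). MT1E had a difference of -0.12 (SE 0.13, limma adjusted p = 0.695). MT1F had 0.09, MT2A -0.03 and MTF1 0.16, with limma adjusted p of 0.767, 0.929 and 0.602. None of the 7 genes passed, and of all 11200 genes limma called 0 (0%), with 1863 at an unadjusted p under 0.05. It also called 0 with group left out of the fit. The arrays of the replicate numbers did not overlap for 5 of the 7 genes (MT1F, MT1G, MT1X, MT2A and SLC30A1), against 38.1% of all genes. For 2 of the 5 the gap was small. The closest log2 values of replicates 1 and 2 were 7.23 and 7.28 for MT1F, and 14.56 and 14.55 for MT2A. SLC30A1 counts by its brighter probe, and its dimmer probe overlapped.

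**Figure D3:**
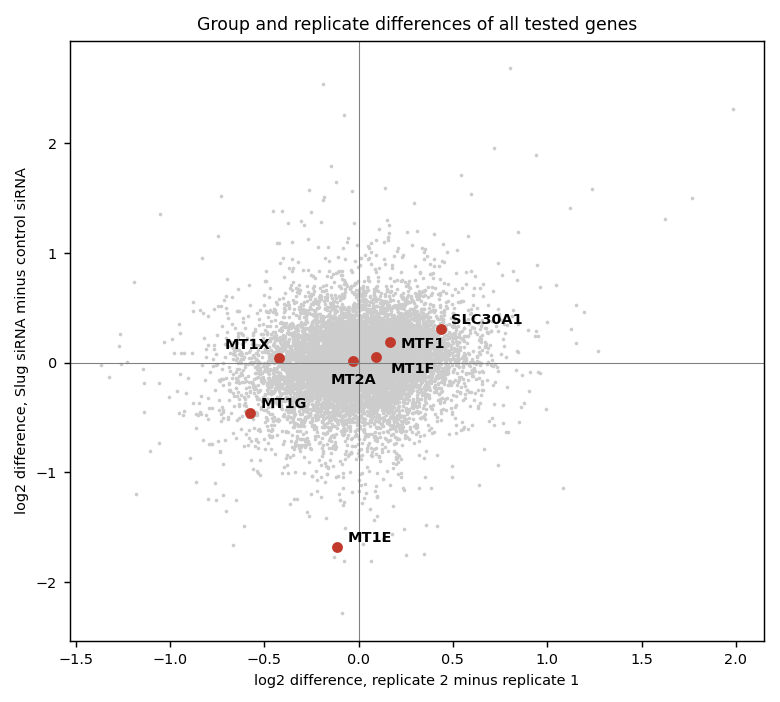
Log2 difference of Slug siRNA minus control siRNA (vertical axis) against that of replicate 2 minus replicate 1 (horizontal axis) for the 11200 tested genes (grey), with the 7 genes in red. MT1E sits low at -1.68 and near 0 between replicates (-0.12), while MT1G (-0.58) and MT1X (-0.43) lie to the left and SLC30A1 (0.43) to the right.

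The wider set of metal and stress genes was described with 6 lists, which held 67 genes, 55 of them measured. They hold other zinc transporters, copper and iron genes, and genes of 3 responses known to accompany or drive metallothionein expression, namely oxidative stress, heat shock and glucocorticoids. None of the 55 passed limma's adjusted threshold, against 0.116% of all genes. At an unadjusted p under 0.05, 5 were higher and 3 lower, while 13.0% of all genes tested (1461) were at such a p in either direction. None of the 55 differed by 1 or more on the log2 scale. Of all genes tested, 0.777% had a difference of -1 or lower. At such a share a count of 0 among 55 genes is not a result about the lists. The median log2 difference over all genes tested was 0.01. A negative difference was seen for 48.4% of all genes tested and a positive one for 51.6%. The list medians below are small and moved with single arrays, so each is given with its range when 1 array was left out and with its value under the other processing that moved it most.

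Of the exporters of the SLC30 family, which move zinc out of the cytosol, 5 of 9 besides SLC30A1 were measured, with a median log2 difference of -0.002 (range -0.09 without control siRNA replicate 2 to 0.08 without control siRNA replicate 1). This value is near 0. With median scaling it was 0.04, where the median over all genes was also 0.04. The exporter median was 0.0050 with no filter on dim probes and -0.0012 with the authors' normalized values. SLC30A7, a zinc transporter of the Golgi, had log2 values of 9.19 and 9.19 with Slug siRNA, against 8.90 and 8.62 with control siRNA, a difference of 0.43 (limma adjusted p = 0.368). SLC30A5, which works in the early secretory pathway, had a difference of -0.25 (limma adjusted p = 0.606). Among the importers of the SLC39 family, which bring zinc into the cytosol, 10 of 14 were measured, 8 of them with a negative difference and with a median of -0.17 (range -0.18 to -0.05, -0.05 being without Slug siRNA replicate 1). It was -0.10 without background correction and -0.09 with no filter on dim probes. The exception of size was SLC39A8, a zinc and manganese importer also called ZIP8. It read 9.06 and 9.40 with Slug siRNA, against 8.43 and 8.61 with control siRNA. Its groups did not overlap, and its difference of 0.71 (SE 0.19) had a limma adjusted p of 0.196. SLC39A10 had a difference of -0.41 (limma adjusted p = 0.436).

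Of the copper and iron genes, 10 were measured, with a median of 0.12 (range 0.06 without Slug siRNA replicate 2 or control siRNA replicate 1 to 0.16, and 0.08 without background correction). SLC31A2, a low-affinity copper transporter also called CTR2, read 7.19 and 7.59 with Slug siRNA, against 6.45 and 6.70 with control siRNA. Its difference of 0.82 (SE 0.20, limma adjusted p = 0.171) was the largest in any of the 6 lists. FTL, the light chain of the iron store ferritin, read 12.38 and 12.46 with Slug siRNA, against 12.77 and 13.10 with control siRNA, a difference of -0.51 (limma adjusted p = 0.303).

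In the oxidative stress list, 10 genes were measured, 8 with a positive difference and with a median of 0.10. This median was -0.03 without Slug siRNA replicate 2, 0.02 without control siRNA replicate 1 and 0.33 when either of the other arrays was left out. It was 0.06 without background correction, 0.07 with an offset of 50, 0.16 with the mean over probes and 0.20 with the authors' normalized values. HMOX1, the heme oxygenase, had a difference of 0.66 (limma adjusted p = 0.274). It was dim, at log2 5.56 and 6.06 with Slug siRNA, against 5.26 and 5.05 with control siRNA. GCLC, the catalytic subunit of glutathione synthesis, had a difference of 0.45 (limma adjusted p = 0.416). All 10 heat shock genes were measured, 8 of them with a negative difference, and the median was -0.14 (range -0.23 without control siRNA replicate 1 to -0.09 without control siRNA replicate 2, and -0.09 with the mean over probes). The chaperone genes HSP90AA1 and HSPA1A both had a difference of -0.41, with limma adjusted p of 0.352 and 0.377. All 10 glucocorticoid-responsive genes were measured, 7 with a positive difference, and the median was 0.17 (range 0.06 without control siRNA replicate 2 to 0.32 without control siRNA replicate 1). It was 0.09 without background correction and 0.04 with the stricter filter on dim probes. The kinase gene SGK1 had a difference of 0.52 and the phosphatase gene DUSP1 one of 0.48, with limma adjusted p of 0.387 and 0.448. At 2 arrays a group, a p that misses the threshold does not show that a gene stayed the same.

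**Figure D4:**
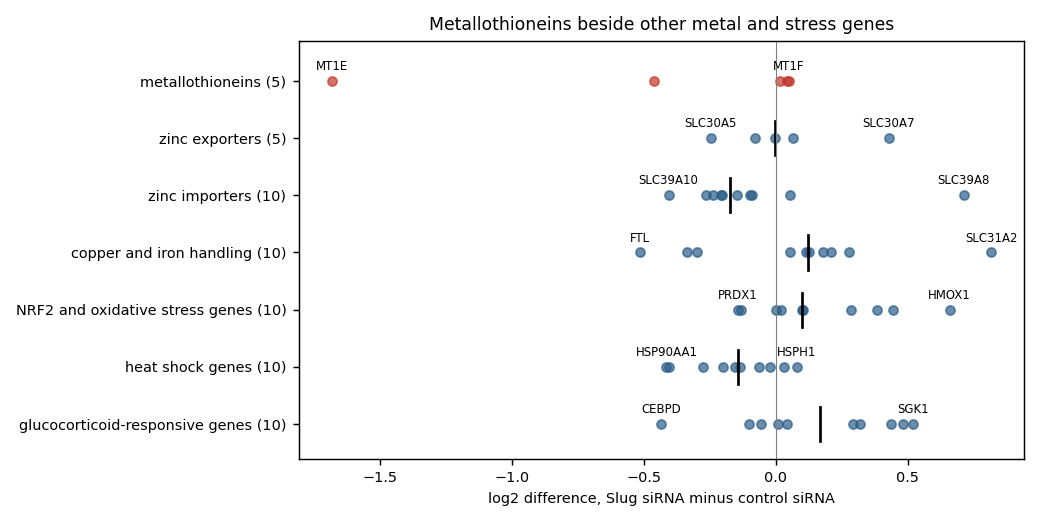
Log2 difference, Slug siRNA minus control siRNA, of each measured metallothionein (red) and of the genes of 6 lists (blue, number measured in parentheses, black bars at list medians), with the lowest and highest gene of each row named. MT1E lies at -1.68, and the genes of the 6 lists lie between -0.51 (FTL) and 0.82 (SLC31A2).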

How the data were processed

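Expression was measured on 4 Illumina bead arrays. Per the file headers, the authors deposited mean bead intensity per probe, not normalized, with a detection p-value against the negative controls, a standard error over beads and a count of beads (median 20 to 21 per array). They also deposited a table of normalized intensity values on a linear scale, whose method is not given in the sources used here. A further 8 columns of per-sample values were not used.

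Background was removed by a normal-exponential fit that took the negative controls from the detection p-values, and the intensities were then given an offset of 16, quantile normalized and put on a log2 scale in R 4.3.3 with limma 3.58.1. Probes with a detection p under 0.05 on at least 2 arrays were kept (19446 of 47323), and each gene stands for its kept probe with the highest mean (11200 genes). Symbols came from the platform annotation, with 1 symbol for 30113 probes (8 others had several and 17202 had none). Groups were compared with lmFit and eBayes, two-sided, calling an adjusted p under 0.05 after the Benjamini-Hochberg method was applied to every kept probe. With 2 arrays against 2, the smallest p of an exact permutation test is 0.333. Figures were drawn with matplotlib 3.10.9.

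The genes, lists and tests were chosen with earlier results of these data known. The text names the 7 genes, SNAI2, from each list the genes past the threshold or else the 2 with the largest difference, and the 5 genes nearest to MT1E. Some genes of the lists are not reported here. Same-numbered arrays of the groups had correlated deviations from the group means (r = 0.36 over probes). In the column headers all arrays share the same number, followed by A and B for replicate 1 and I and J for replicate 2. The replicate number thus goes with these letters, and the part of array position was not tested. No label says that a replicate number marks a shared day or batch, so it was not a term in the comparison of groups. The alternatives were no background correction, an offset of 50, median scaling, the authors' normalized values (pseudocount 0), no filter or a stricter one at a detection p under 0.01, the replicate number as a block, the mean over a gene's kept probes, and leaving out each array without normalizing again, where the lone array is assumed to vary like the other group.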

Additional observations from a re-analysis of the deposited data

How the results depend on the processing

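The log2 difference of MT1E was negative under all 12 alternatives, from -1.75 to -1.48, and moved by more than the spread between replicates only without background correction (-1.48). MT1G was negative, and MTF1 and SLC30A1 positive, under all 12. The filter settings and the replicate block could not change these differences. For MT1E, MT1G and MTF1, each with 1 kept probe, the mean over kept probes could not either. Agreement under those settings therefore adds nothing. MT1F changed sign without control siRNA replicate 1 (-0.016, range with 1 array left out -0.016 to 0.12). MT1X did so without Slug siRNA replicate 1 (-0.25) and without control siRNA replicate 2 (-0.09), with a range of -0.25 to 0.34, and MT2A with median scaling (-0.031) and without control siRNA replicate 2 (-0.0073, range -0.0073 to 0.044). The median of the zinc exporters, -0.002, was 0.041 with median scaling (0.044 over all genes) and 0.0050 with no filter on dim probes. Leaving out control siRNA replicate 1 gave 0.082 and leaving out Slug siRNA replicate 1 gave 0.036 (range -0.087 to 0.082). That of the oxidative stress genes was -0.032 without Slug siRNA replicate 2 (range -0.032 to 0.33). The number of genes past the threshold, 13, was 158 without background correction, 217 with an offset of 50, 34 with median scaling, 0 with the authors' normalized values, 0 with no filter on dim probes, 52 with the stricter filter, 69 with the mean over kept probes and 361 with the replicate number as a block. With 1 array left out it ranged from 3 (without control siRNA replicate 1) to 20 (without control siRNA replicate 2), and was 5 without Slug siRNA replicate 1. The causes were not tested. Of the 55 list genes, 1 passed with the replicate number as a block, SLC31A2, and none under the other 11 alternatives. Group and replicate number being balanced, the block changed no log2 difference.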
